A study of Homo sapiens with 6 samples.

Results

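ITGA2, ITGB4 and ITGB6 encode 3 integrin subunits of epithelial cells, and each was found by its gene name in a table of 426 genes that the authors listed as differing between VPS35 knockdown and control cells. RNA was sequenced from 6 samples of MKN28, a gastric cancer line of human origin that registries record as derived from MKN74. One group of 3 samples carried a control vector and the other 3 carried a short hairpin RNA (shVPS35) that targets VPS35. The VPS35 protein forms the core of retromer, which retrieves membrane proteins from endosomes. The series calls the samples of a group biological replicates, and does not say how many hairpins or clones stand behind the shVPS35 group. The comparison asks how transcript levels differ when VPS35 is depleted.

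Integrins are receptors made of an alpha and a beta subunit that bind cells to the extracellular matrix and signal through focal adhesions. The alpha 2 subunit pairs with beta 1 to form a collagen receptor. Beta 4 pairs with alpha 6, binds laminin and anchors keratin filaments in hemidesmosomes. Beta 6 pairs with alpha V, is made mainly by epithelial cells, and releases TGF-beta from its latent complex. Integrin proteins cycle through endosomes, where sorting complexes return them to the cell surface, whereas the values given here are transcript levels and say nothing of protein at the surface.

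All 3 genes lie on separate chromosomes. ITGA2 (ENSG00000164171) spans chromosome 5 from 52989326 to 53094779 on the plus strand of GRCh38, ITGB4 (ENSG00000132470) spans chromosome 17 from 75721328 to 75757818 on the plus strand, and ITGB6 (ENSG00000115221) spans chromosome 2 from 160099666 to 160200313 on the minus strand. GENCODE 29 gives 6 transcripts for ITGA2, 13 for ITGB4 and 7 for ITGB6, and the values were deposited per gene, so isoforms are not told apart. Where the library kit kept no strand, reads of ITGB4 cannot be separated from GALK1 on the opposite strand where both overlap, nor those of ITGA2 from 2 antisense RNA genes. ITGB6 overlaps 1 noncoding gene, AC092153.1, on its own strand. None of these overlapping genes was among the 426.

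The start regions of ITGA2 and ITGB6 are shown because both transcripts fell in the same comparison while their start regions differ widely in base composition. Each runs from 250 bases before to 50 bases after the annotated start, from RefSeq on GRCh38.p14, read 5′ to 3′ on the gene's strand. The ITGA2 window is chr5:52989102-52989401 and the ITGB6 window is chr2:160200223-160200522, on the minus strand. ITGB4 is not shown. Capitals mark matches to any of 5 motifs, each searched on both strands. The motif of AP-1 was spelled TGANTCA and that of SP1 proteins GGGCGG. For ETS factors the letters were GGAAGT and for TEAD factors GGAATG, while the TATA box was spelled TATAAA.
ITGA2: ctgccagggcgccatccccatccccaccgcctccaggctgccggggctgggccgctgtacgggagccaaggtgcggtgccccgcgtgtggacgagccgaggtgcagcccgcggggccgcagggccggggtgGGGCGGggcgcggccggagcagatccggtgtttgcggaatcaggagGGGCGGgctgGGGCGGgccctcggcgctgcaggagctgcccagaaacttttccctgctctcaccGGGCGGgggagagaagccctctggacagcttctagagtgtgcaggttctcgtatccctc
ITGB6: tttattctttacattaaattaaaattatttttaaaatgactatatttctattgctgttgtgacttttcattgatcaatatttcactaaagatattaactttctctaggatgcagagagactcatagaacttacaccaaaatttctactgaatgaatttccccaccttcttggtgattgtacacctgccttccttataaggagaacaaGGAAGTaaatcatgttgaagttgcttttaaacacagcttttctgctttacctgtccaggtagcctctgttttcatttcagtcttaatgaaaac
The ITGA2 window had a GC content of 72.7%, higher than 85.7% of 35116 such windows, and 27 CpG dinucleotides. The ITGB6 window had a GC content of 31.7%, with 1.74% of windows lower, and 0 CpG dinucleotides. GGGCGG occurred 4 times in the ITGA2 window, against 9.06% of all windows with as many and 45.0% with at least 1. GGAAGT occurred 1 time in the ITGB6 window, a motif found in 22.8% of all windows. The other motifs had no match in either window, which says only that these letters are not there.

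As a check on the labels, VPS35 itself was at 64.4, 64.3 and 67.2 with the vector and at 12.9, 15.6 and 11.8 with shVPS35. These and all levels below are expression values as the authors deposited them, with no unit named and no read counts, so depth is unknown and no counting error can be given. Summed over the 426 genes the values came to between 5029 and 5130 in vector and between 4696 and 5004 in shVPS35 samples. The levels of different genes are set side by side below only as deposited, since it is not stated that they are per length.

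The collagen receptor subunit ITGA2 had expression values of 8.03, 7.70 and 8.32 with the vector and 2.70, 2.93 and 2.90 with shVPS35. Every vector sample lay above every shVPS35 sample, and the lowest vector value was 2.63 times the highest shVPS35 value. Mean ITGA2 was 8.02 ± 0.310 in vector and 2.84 ± 0.125 in shVPS35 samples (SD, n = 3 per group), and 35.5% of the vector level remained. On the log2(value + 1) scale, which understates the change of low genes, the difference was -1.23 ± 0.10 (SE; limma adjusted p = 6.1e-06). The values scattered little within a group. The coefficient of variation was 3.87% in vector and 4.40% in shVPS35 samples, while listed genes with a group mean from 2 to 20 had medians of 11.5% and 12.0%.

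ITGB4, the laminin receptor subunit of hemidesmosomes, had the highest values of the 3 genes, at 10.1, 12.4 and 13.5 in vector and 3.46, 4.15 and 4.44 in shVPS35 samples. The groups did not overlap, with the lowest vector value 2.28 times the highest shVPS35 value. Mean ITGB4 was 12.0 ± 1.72 in vector and 4.02 ± 0.503 in shVPS35 samples (SD, n = 3 per group), leaving 33.5% of the vector level. The log2(value + 1) difference was -1.37 ± 0.13 (SE; limma adjusted p = 1.7e-05). The coefficients of variation, 14.3% and 12.5%, were near the medians for listed genes of that level. In both groups sample 1 was the lowest and sample 3 the highest for this gene, although no pairing by sample number was seen across the tested genes.

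ITGB6, the subunit of the TGF-beta activating integrin, was the lowest of the 3, at 1.92, 1.40 and 1.80 in vector and 0.950, 0.530 and 1.36 in shVPS35 samples. The groups were separated by a narrow margin, since vector sample 2 at 1.40 and shVPS35 sample 3 at 1.36 nearly met. The mean went from 1.71 ± 0.272 to 0.947 ± 0.415 (SD, n = 3 per group), or 55.5% of the vector level. Its log2(value + 1) difference was -0.49 ± 0.17 (SE; limma adjusted p = 0.0197). That call ended without vector sample 1 (-0.44, limma adjusted p = 0.0559), without shVPS35 sample 2 (-0.33, limma adjusted p = 0.0606) and with trimmed-mean scaling (-0.29, limma adjusted p = 0.146). Within the shVPS35 group the coefficient of variation was 43.8%, against a median of 24.6% for the 132 listed genes with a shVPS35 mean from 0.5 to 2, of which 17.4% varied at least as much.

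**Figure D1:**
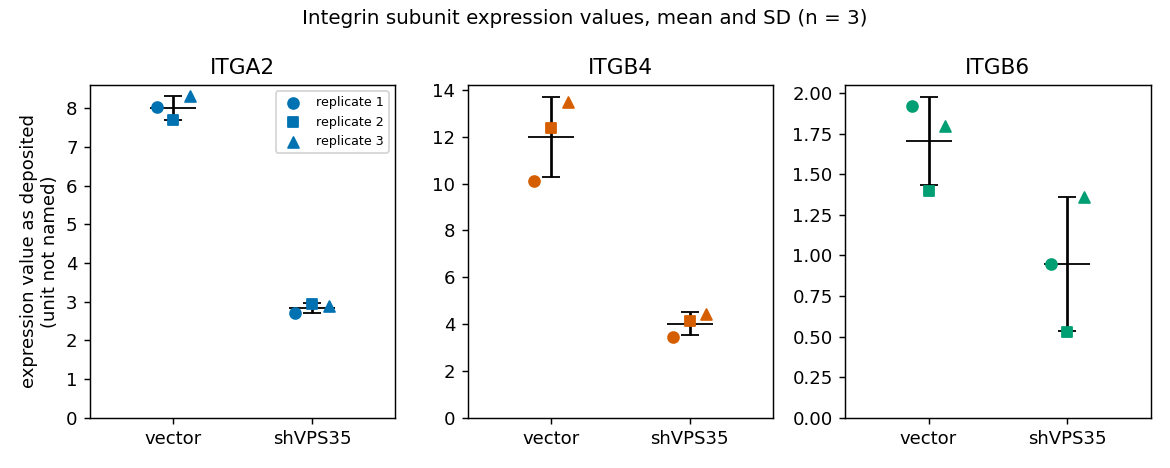
Expression values as deposited (vertical axes from 0, a separate range for each gene) of ITGA2, ITGB4 and ITGB6 in the 3 vector and 3 shVPS35 samples. Points are samples with a marker for each replicate number, and black bars give the mean and SD. ITGA2 and ITGB4 have wide gaps between the groups, while for ITGB6 the lowest vector sample (1.40) and the highest shVPS35 sample (1.36) nearly meet.

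The 3 genes were all lower in every shVPS35 sample than in any vector sample. That count has to be read against a table that holds genes already called on these same samples. Of all 426 listed genes, 50.9% were lower in shVPS35 with no overlap between groups. That share counts genes listed as higher in its base. The authors listed 236 genes as lower, and 217 genes were lower with no overlap, so such separation was usual among lower listed genes. All 292 listed genes in the limma test passed it (100%), 54.8% of them lower, so passing does not set the integrin subunits apart and the limma p-values are no independent evidence of change. They only relate each difference to a scatter within the groups that the limma fit estimated in part from the other tested genes. The same holds for each SE of a difference. For each of the 3 genes an exact permutation test over the samples gave p = 0.1 (2-sided), the smallest p this design allows. The median limma difference of the 160 lower genes was -1.01. By size ITGB4 stood 42nd and ITGA2 53rd among these 160, while ITGB6 stood 159th. The size of each difference depends on the pseudocount. With 0.1 and with 5 in place of 1 it was -1.46 and -0.73 for ITGA2, -1.55 and -0.91 for ITGB4, and -0.86 and -0.18 for ITGB6, all 6 still past the limma threshold. ITGB6 entered the test with a value of 1 or more in 4 of 6 samples, which included all 3 vector samples.

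**Figure D2:**
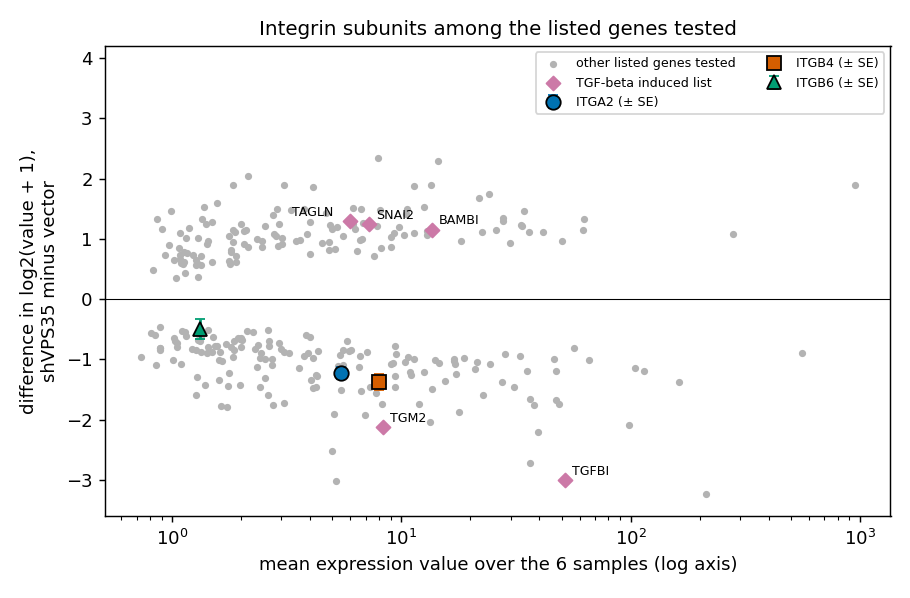
Difference in log2(value + 1), shVPS35 minus vector (vertical axis), against the mean expression value over the 6 samples (horizontal log axis) for the 292 listed genes tested. ITGA2 (-1.23) and ITGB4 (-1.37) lie within the band of lower genes and ITGB6 (-0.49) at its edge nearest to 0, while listed members of the TGF-beta induced list lie on both sides of 0. Bars on the integrin subunits are SE from the limma fit, which shares scatter across the tested genes.

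In the authors' deposited table the log2 fold changes of the 3 genes were nearly the same, -1.52 for ITGA2, -1.56 for ITGB4 and -1.62 for ITGB6. The log2 ratios of the deposited mean values were -1.495, -1.578 and -0.850 in that order. The authors' value minus that of the means was -0.0238 for ITGA2 and 0.0157 for ITGB4, but for ITGB6 the log2 fold change of the authors' deposited table was farther from 0, with a gap of -0.77. The median absolute gap of this kind was 0.09 over the 423 genes with both group means above 0, and 23 of them had a gap at least as large as that of ITGB6. Of the 316 genes that reached a mean of 1 or more in either group, 12 had one. The transcripts of ITGB6 in GENCODE 29 run from 354 to 4675 bases, and the part of transcript length in this gap was not tested. In the authors' deposited table the adjusted p was 1.9e-65 for ITGA2, 2.4e-50 for ITGB4 and 1.8e-09 for ITGB6, by a test that the labels do not name. The p-values and adjusted p-values of the authors' deposited table give a total of 16063 genes tested, among which ITGA2 ranked 89th, ITGB4 127th and ITGB6 900th by p.

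**Figure D3:**
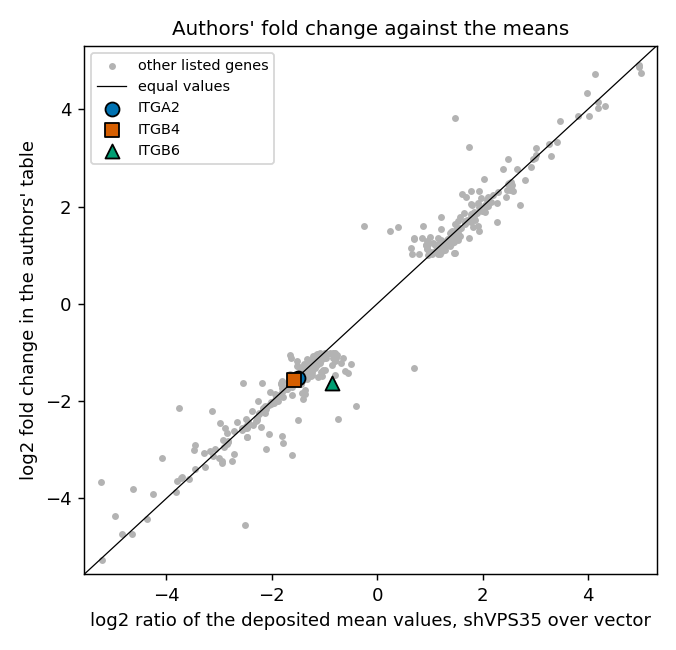
Log2 fold change that the authors' deposited table gives (vertical axis) against the log2 ratio of the deposited mean values, shVPS35 over vector (horizontal axis), for the 423 listed genes with both means above 0. ITGA2 and ITGB4 lie on the line of equal values, and ITGB6 lies below it, at -0.85 by the means and -1.62 in the authors' deposited table.

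Whether the subunits fell by unequal amounts was asked from the ratios within each sample, over 3 pairs of genes. The value of ITGA2 was 0.793, 0.623 and 0.617 of that of ITGB4 in vector samples and 0.780, 0.706 and 0.653 in shVPS35 samples. These ranges overlapped. The log2(value + 1) difference of ITGA2 minus ITGB4 went from -0.52 ± 0.19 to -0.38 ± 0.11 (SD, n = 3 per group), a change of 0.14 with an exact permutation p of 0.3 (2-sided, 0.3 adjusted over 3 pairs). The range of 0.08 to 0.25 on leaving out a sample shows how far 1 sample moves that change, and the design is too small to show that both fell alike.

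ITGA2 was 4.18, 5.50 and 4.62 times ITGB6 in vector samples and 2.84, 5.53 and 2.13 times in shVPS35 samples. Here shVPS35 sample 2, in which ITGB6 was at its lowest, lay just above the highest vector sample and the other 2 lay below the lowest. On the log2(value + 1) scale the difference narrowed from 1.74 ± 0.11 to 1.00 ± 0.33, a change of -0.74 (exact permutation p = 0.1, 2-sided, n = 3 per group, 0.15 adjusted over 3 pairs). ITGB4 was 5.27, 8.83 and 7.49 times ITGB6 in vector and 3.64, 7.83 and 3.26 times in shVPS35 samples, here with shVPS35 sample 2 inside the vector range. Its log2(value + 1) difference went from 2.26 ± 0.29 to 1.38 ± 0.32, a change of -0.88 (exact permutation p = 0.1, 2-sided, n = 3 per group, 0.15 adjusted over 3 pairs). Part of both changes lies in the pseudocount, which shrinks the change of ITGB6 most. With none the changes were -0.56 and -0.64 (exact permutation p = 0.4 and 0.3, 2-sided).

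**Figure D4:**
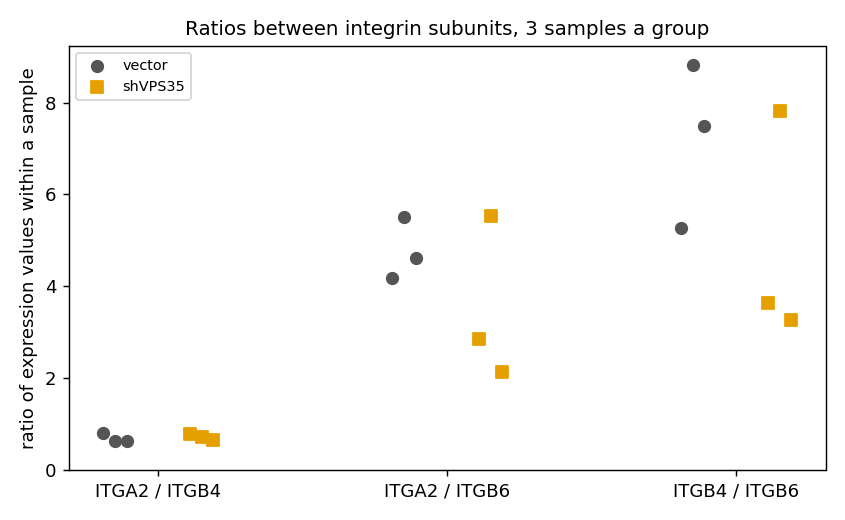
Ratio of the expression values of each pair of integrin subunits within a sample (vertical axis from 0), with vector samples as circles and shVPS35 samples as squares. The ITGA2 to ITGB4 ratios of both groups overlap, with the shVPS35 samples, at 0.653 to 0.780, inside the vector range of 0.617 to 0.793. In both ratios over ITGB6 shVPS35 sample 2 lies high and the other shVPS35 samples lie below it. That sample is at 5.53 for ITGA2, just above the highest vector sample at 5.50, and at 7.83 for ITGB4, inside the vector range.

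Of the 26 human integrin subunit genes, these 3 were the only ones in the table, and all 3 fell. That is 11.5% of the family, beside 2.65% of the genes tested by the authors that were listed and 1.47% that were listed as lower. The 3 genes were chosen with earlier results of these data known, so these shares are no test of the family. How many of the 26 the authors tested is not known. ITGB1, ITGA6 and ITGAV, which encode the partner subunits of alpha 2, beta 4 and beta 6, were among the 23 not listed. The listed genes all have an adjusted p under 0.05 and a log2 fold change beyond 1 in size in the authors' deposited table. ITGB6 passed that size by the authors' value of -1.62, while its log2 ratio of the deposited means, -0.850, did not. An unlisted gene may have missed one of these limits, may not have been tested or may have been left out by a rule not given. The levels of unlisted genes were not analysed here.

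Lists of some ligands and partners of these receptors had no listed member, a count that lists of this size can also give at the background of 2.65%. None of 13 collagen genes chosen as ligands of the alpha 2 receptor, none of the 12 laminin chain genes and none of 7 ligand genes of the beta 6 receptor, FN1, TNC and TGFB1 among them, was listed. The same was true of 7 hemidesmosome genes, including PLEC, DST and COL17A1, and of 28 genes of adaptors and focal adhesions, including those for talin, vinculin, paxillin and kindlins. From 12 genes of other collagen and laminin receptors MRC2, an endocytic collagen receptor, was the single listed member. MRC2 rose, from 9.86 ± 0.910 to 33.7 ± 1.37 (SD, n = 3 per group; log2(value + 1) difference 1.68 ± 0.08, SE, limma adjusted p = 2.9e-07), opposite in direction to ITGA2. Of 23 genes for endosomal sorting and recycling of integrins, such as SNX17, SNX27, RAB11A and RAB25, VPS35 alone was listed.

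Genes induced by TGF-beta, the cytokine that the beta 6 integrin activates, moved in both directions. Of the 11 genes of this list reported here, 5 (45.5%) were in the table, beside 2.65% of all genes tested by the authors. All 5 passed the limma test, as did 100% of the genes it covered, 2 lower and 3 higher. The list was chosen with earlier results of these data known, and one gene was taken off it after results were known. The share of 45.5% is therefore no test of the list, and the split describes the 5 genes alone. The matrix protein gene TGFBI (-3.01) and the transglutaminase gene TGM2 (-2.12) fell on the log2(value + 1) scale. TAGLN, which encodes the actin-binding protein transgelin, rose by 1.30, the repressor gene SNAI2 by 1.24 and BAMBI, a decoy receptor gene, by 1.15 on the log2(value + 1) scale.

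The genes with the most similar profile were named by the root mean square difference of log2(value + 1), centred on each gene's own mean, over the 6 samples and among 291 other tested genes. For ITGA2 these were ETV5, an ETS transcription factor gene, TMEM40, GPRC5A, an orphan receptor gene, GDF15, a stress-induced cytokine gene, and TSPAN14, a tetraspanin gene, at 0.07 to 0.08. For ITGB4 they were VEGFC and EREG, genes of a vascular growth factor and of a ligand of the EGF receptor, SLCO1B3, an organic anion transporter gene, TSPAN8 and CDKN1A, at 0.09 to 0.13. VEGFC went from 6.55 ± 0.581 to 1.73 ± 0.275 and EREG from 11.1 ± 1.11 to 3.44 ± 0.216 (SD, n = 3 per group). For ITGB6 they were EHF, an epithelial ETS factor gene, BICDL1, CYP4F11, FCMR and PPP2R2C, at 0.14 to 0.21. EHF, at 4.83, 3.87 and 5.78 in vector and 2.88, 2.43 and 3.26 in shVPS35 samples, had its lowest sample of each group at number 2, as ITGB6 had. So did BICDL1 and PPP2R2C. These genes were picked as nearest over the same 6 samples, so a shared order follows in part from that choice. ITGA2 and ITGB4 differed by 0.14, ITGA2 being the 6th nearest gene to ITGB4 and ITGB4 the 26th nearest to ITGA2. ITGB6 was 142nd from ITGA2 and 149th from ITGB4, and from ITGB6 they were 96th and 118th. Only 2 of each 5 named genes were also among the nearest 5 with a pseudocount of 0.1.

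**Figure D5:**
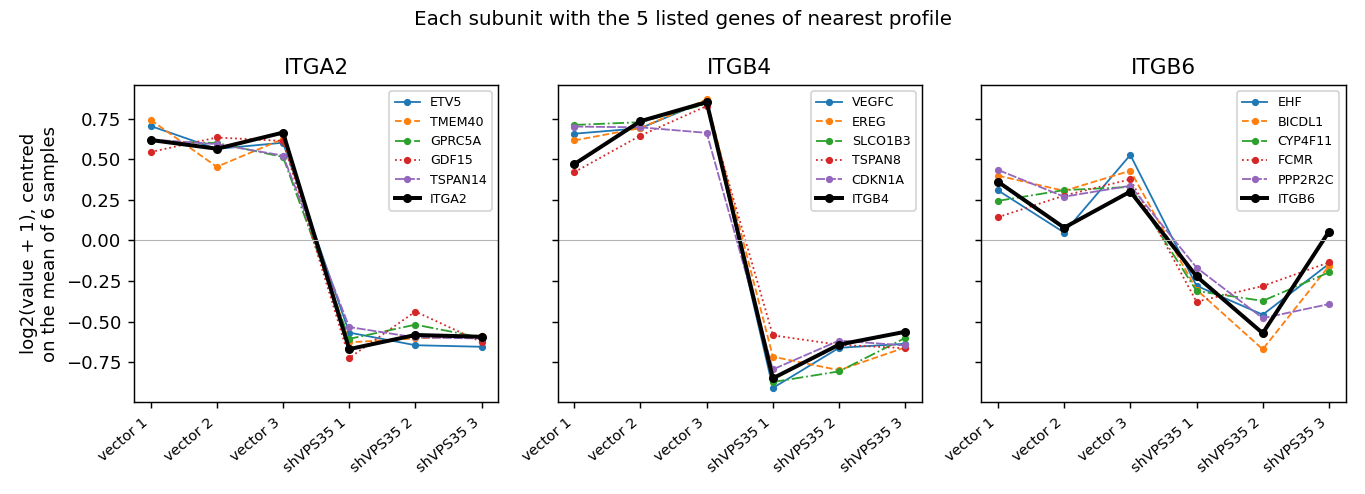
Log2(value + 1) centred on each gene's mean (vertical axis) in the 6 samples (horizontal axis) for each integrin subunit, in black, and the 5 tested genes nearest to it. The lines join samples of one gene and imply no order, and the group difference is visible in all 3 panels, with a wider scatter of samples for ITGB6.

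Within 1 Mb of each gene, ITGA2 and ITGB6 had no listed neighbour in GENCODE 29, and ITGB4 had 1, MYO15B, which is named here after its values were seen. MYO15B, an unconventional myosin gene, was at 1.98, 2.05 and 1.53 in vector and 0.590, 1.57 and 0.930 in shVPS35 samples, and its groups overlapped. Its log2(value + 1) difference was -0.51 ± 0.18 (SE; limma adjusted p = 0.0215), near the -0.49 of ITGB6.

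The labelled cell type could be checked only within the listed genes. Of 12 epithelial identity genes, which include EPCAM, CDH1 and KRT8, ESRP1 alone was listed (8.33%, beside 2.65% of all genes tested by the authors). ESRP1 was at 0.05 to 0.13 in vector and 0.250 to 0.390 in shVPS35 samples, too low for the limma test. Of 18 markers of other cell types 4 were listed (22.2%, beside the same 2.65%). The summed level of these 4 was 58.0 to 61.3 in vector and 20.8 to 24.2 in shVPS35 samples. The other 14, PTPRC and PECAM1 among them, were not listed. Both lists were chosen with earlier results of these data known, so the shares are no test of them. CD68, a lysosomal glycoprotein used as a macrophage marker, made up most of the summed level, at 54.4 to 57.0 and 16.5 to 17.3. Without CD68 the sum of CDH5, DCN and LUM was 2.52 to 4.24 and 3.76 to 6.96, in which the 3 genes differed in direction. DCN, a fibroblast proteoglycan gene, rose from 1.48 ± 0.485 to 4.19 ± 1.22 (SD, n = 3 per group; limma adjusted p = 0.00137). CDH5 had 0.980 ± 0.234 in vector and 0.547 ± 0.121 in shVPS35 samples and LUM 1.17 ± 0.429 and 0.560 ± 0.373, both too low for the limma test. For LUM the groups overlapped, with a lowest vector value of 0.690 and a highest shVPS35 value of 0.990. The part of other cells in the integrin differences was not tested. In bulk RNA, fewer cells with a transcript and less of it per cell cannot be told apart, and with a single knockdown group neither can loss of VPS35 and other effects of the hairpin RNA.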

How the data were processed

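Total RNA of 6 MKN28 samples was sequenced, and per the submitters' processing notes fastp, HISAT and RSEM and the build GRCh38.p13 were used, whose roles and versions the sources used here do not give. The authors' deposited table holds an expression signal per gene and sample with no named unit, their ratio and log2 fold change of shVPS35 over vector, and their p-value and adjusted p-value, for 426 listed genes. Samples were grouped by their titles. Signal values were tested as log2(value + 1) with limma 3.58.1 (trend, robust, R 4.3.3, statmod 1.5.0) with group as the only term, over the 292 listed genes that reached 1 in 3 samples or more, and adjusted by Benjamini and Hochberg (threshold 0.05). The test was tried on simulated data first. The number of genes the authors tested was taken from p over adjusted p, with 387 of 422 ranks whole within 0.01. Other steps used Python 3.11.15, scipy 1.17.1, pandas 2.3.3 and numpy 2.4.6. Positions come from GENCODE 29 and start regions from RefSeq. The rule for named genes took the 3 integrin genes, VPS35, every listed member of 11 gene lists, and the 5 nearest genes to each integrin gene. One gene of the TGF-beta induced list is not reported here and was taken off the list afterwards. Members and lists were chosen with earlier results of these data known. Alternatives were pseudocounts of 0.1 and 5, other filters, median centring, trimmed-mean scaling, plain limma, a replicate block and leaving out each sample.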

Additional observations from a re-analysis of the deposited data

How the results depend on the processing

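ITGA2 and ITGB4 stayed lower and past the threshold under every alternative run, with log2 differences from -1.46 to -0.73 and from -1.55 to -0.91. ITGB6 stayed lower, from -0.86 to -0.18, and missed the threshold with trimmed-mean scaling (-0.29) and without vector sample 1 or shVPS35 sample 2. It passed narrowly with median centring, without vector sample 3 and without shVPS35 sample 1 (limma adjusted p = 0.0497, 0.0495 and 0.0456 in that order). On leaving out a sample it ranged from -0.64 to -0.33 (limma adjusted p 0.00546 to 0.0606). Its highest value was 1.92, so the filter of 5 in 3 samples left it out. Why it missed the threshold under the settings named above was not tested. Trimmed-mean scaling raised the median difference of all tested genes by 0.22, over genes already chosen for differing. With a filter of 5, 78 genes were lower and 62 higher, since only 141 were then tested. The replicate block changed no call of the 3 genes (log2 difference -0.49, limma adjusted p = 0.00996 for ITGB6). Deviations of same-numbered samples correlated at -0.06, -0.09 and 0.03 across the tested genes. That shows no pairing by number, but correlations over listed genes alone cannot exclude that such samples were handled together. Of 24 other named genes in the test, 23 kept their call under every alternative that tested them (the filter of 5 left out 6), and EHF missed it with trimmed-mean scaling (-0.30, limma adjusted p = 0.0964). Read depth is unknown, so its part in the scatter of ITGB6 was not tested.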
